A study of Mus musculus with 6 samples.

Results

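Trp53, Trp73, Mdm2, Mdm4, Bax, Bbc3, Pmaip1, Ccng1, Sesn2 and Phlda3, which encode p53, its relative p73, the inhibitors of p53 and a set of its targets, were compared between mouse retinae lacking Rb1, p107 and Hells (TKO) and retinae lacking Rb1 and p107 (DKO), both taken at P21, that is 21 days after birth. The 10 genes were taken by symbol, and all 10 were found among the 24062 genes of the count table. Of these, 4 were called lower in TKO retinae (Trp53, Trp73, Bax and Phlda3) and 0 higher, a call being an edgeR adjusted p no greater than 0.05. Of all 16904 genes tested, 9.2% were called lower and 7.35% higher. Trp53 fell by 44.1% in mean normalized count and Trp73 by 80.3%, whereas Mdm2 stood at 926 ± 37.9 normalized counts with Hells deleted and 939 ± 34.3 without the deletion (SD, n = 3 each). Normalized counts are scaled for library size, and log2FC is the fitted log2 fold change of TKO over DKO with its standard error (SE). Values of single retinae are listed in the order of replicates 1, 2 and 3.

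Both genotypes carry the Chx10-Cre transgene, floxed Rb1 and a germline loss of p107, and TKO mice carry floxed Hells as well, with 3 retinae per genotype. The strain is C57BL/6 in the labels and C57BL/6N in the study's methods. Chx10-Cre acts in early retinal progenitors and in a mosaic pattern, so some cells of a retina keep intact floxed genes and lack p107 alone. The labels do not say whether the 3 retinae of a genotype came from separate animals, so the tests measure the spread between these samples. No retina with intact Rb1 and p107 was analysed here, so levels are given for TKO against DKO only.

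p53 is a transcription factor that is held at a low level by MDM2, a ubiquitin ligase, and held inactive by MDM4. When MDM2 is inhibited, for example by ARF from the Cdkn2a locus or after DNA damage, p53 accumulates and activates genes of cell cycle arrest, apoptosis and repair, Mdm2 itself among them. Trp73 and Cdkn2a are also known targets of the E2F factors that the RB family restrains. Much of the control of p53 lies in the stability of the protein, which mRNA counts do not measure.

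The 6 libraries held between 10343907 and 14203098 counts on genes. Hells was at most 83.4 normalized counts in a TKO library and at least 395 in a DKO library, the direction of the labels. These are counts over the whole gene, not over the deleted exon, and the dividing cell markers fell too, so the count alone does not show the deletion. All 8 rod markers listed were detected in each group, as the retina label states, and their summed level ran from 335546 to 683317 normalized counts in TKO and from 114654 to 216438 in DKO retinae. The 6 dividing cell markers (Mki67, Top2a, Ccnb1, Cdk1, Birc5 and Aurkb) summed to 392, 766 and 1717 in the TKO retinae and to 9382, 6696 and 4293 in the DKO retinae, and each of the 6 was lower in TKO retinae. The 6 microglia markers summed to between 872 and 1453 in TKO and between 1816 and 2698 in DKO retinae, with 4 of 6 called lower. The 5 Muller glia markers summed to between 41629 and 50241 in TKO and between 24851 and 27506 in DKO retinae, with 2 called higher and 1 lower. The 6 cone markers summed to between 5876 and 15856 in TKO and between 4081 and 6659 in DKO retinae, ranges that overlapped, with 2 called higher. Replicate 3 of each genotype lay closest to the other genotype in rods and in dividing cells. In TKO replicate 2 the 6 lens markers summed to 2954, against 447 and 548 in the other TKO retinae and 70.0 to 82.0 in DKO retinae. Of these markers 3 were called higher (Cryaa, Crybb2 and Cryba1) and 0 lower. In TKO replicates 1 and 3, Mip gave 19.5 and 23.3, against 23.6 to 26.4 in DKO retinae. Bfsp1 gave 20.6 and 28.2 there, against 25.4 to 32.0 in DKO retinae. In whole retinae, fewer cells of a type and less RNA per cell cannot be told apart.

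On GRCm38, Mdm2 lies on chromosome 10 from 117688875 to 117710758, Mdm4 on chromosome 1 from 132959484 to 133030561 and Bbc3 on chromosome 7 from 16308393 to 16318205. Ccng1 lies on chromosome 11 from 40748552 to 40755311 and Sesn2 on chromosome 4 from 132492032 to 132510501. RefSeq promoter windows of GRCm38.p6, running from 250 bases before to 50 bases after a gene start, were searched for the p53 consensus decamer, which pairs with a second decamer in a full p53 site. Windows were found for 9 of the 10 genes, with 13 windows in all because Trp73, Mdm4 and Bbc3 have several starts, and Pmaip1 had none. The decamer was in 4 of the 13 windows, those of Bax, Ccng1, Mdm2 and Trp53, against 8.36% of the 32851 windows of all genes. Most of the 10 genes were listed because they are p53 targets, so this share is no result about the retinae. These 4 windows are shown because they hold a pair of genes that fell in TKO retinae (Bax and Trp53) and a pair that did not pass the test (Ccng1 and Mdm2). Capitals mark the decamer, whose pattern is the same on both strands. Counted from the gene start, it begins at -201 in Bax, -185 in Ccng1, -186 in Mdm2 and -75 in Trp53.
Bax, chr7:45466849-45467148, minus strand: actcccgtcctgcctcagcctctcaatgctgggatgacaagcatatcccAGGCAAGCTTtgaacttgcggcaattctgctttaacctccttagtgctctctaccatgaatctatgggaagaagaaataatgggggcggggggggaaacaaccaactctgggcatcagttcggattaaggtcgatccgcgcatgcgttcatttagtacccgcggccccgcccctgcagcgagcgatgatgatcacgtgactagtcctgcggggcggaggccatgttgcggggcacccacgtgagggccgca
Ccng1, chr11:40755237-40755536, minus strand: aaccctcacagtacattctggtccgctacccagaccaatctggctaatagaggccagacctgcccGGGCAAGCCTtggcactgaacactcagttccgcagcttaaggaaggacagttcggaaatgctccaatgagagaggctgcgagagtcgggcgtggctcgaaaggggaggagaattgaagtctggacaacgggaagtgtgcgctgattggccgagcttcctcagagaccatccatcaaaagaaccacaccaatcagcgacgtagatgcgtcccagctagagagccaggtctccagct
Mdm2, chr10:117710709-117711008, minus strand: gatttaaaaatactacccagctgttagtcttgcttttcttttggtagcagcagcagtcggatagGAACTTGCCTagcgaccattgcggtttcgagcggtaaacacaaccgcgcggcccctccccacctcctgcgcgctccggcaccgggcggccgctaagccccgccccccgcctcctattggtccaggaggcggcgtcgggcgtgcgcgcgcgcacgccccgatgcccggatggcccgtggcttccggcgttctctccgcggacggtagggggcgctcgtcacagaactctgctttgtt
Trp53, chr11:69580109-69580408, plus strand: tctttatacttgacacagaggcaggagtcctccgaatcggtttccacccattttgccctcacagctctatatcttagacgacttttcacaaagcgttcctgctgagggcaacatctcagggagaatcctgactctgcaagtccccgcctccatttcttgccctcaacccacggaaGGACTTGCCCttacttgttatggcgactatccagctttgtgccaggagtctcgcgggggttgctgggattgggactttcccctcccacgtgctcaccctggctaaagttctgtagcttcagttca
The E2F motif TTTCCCGC or TTTGGCGC, searched on both strands, was in 0 of the 13 windows and in 1.56% of all windows. With a motif this rare, 0 of 13 was the likely outcome, so nothing is read from it. Other forms of the E2F motif were not searched. The GC box GGGCGG was in 8 of the 13 windows, which belong to 6 of the 9 genes, and in 35.7% of all windows. The median GC content was 64.7% in the 13 windows and 52.7% in all windows. A match is only a match of letters, and p53 sites often lie outside such windows, for example in introns.

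Trp53 itself, on chromosome 11 of GRCm38 from 69580359 to 69591873, gave 279, 279 and 299 normalized counts in the TKO retinae and 484, 523 and 527 in the DKO retinae. The highest TKO value lay well below the lowest DKO value, and the spread within each genotype was small. The log2FC was -0.84 (SE 0.094, edgeR adjusted p = 0.0048). It was the only member called under every alternative listed in the processing summary, and its edgeR adjusted p reached 0.0362 at most when 1 retina was left out. The dividing cell markers summed to 392, 766 and 1717 normalized counts in the TKO retinae, where Trp53 ran from 279 to 299. In the DKO retinae they summed to 9382, 6696 and 4293, where Trp53 was 484, 523 and 527. The part of dividing cells, rods, cones, Muller glia or microglia in the level of Trp53 was not tested.

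Trp73, which encodes the p53 relative p73 and lies on chromosome 4 from 154056253 to 154140208, had the widest change of the 10 genes. It gave 9.17, 23.2 and 34.4 normalized counts in the TKO retinae, from 8, 22 and 28 counts, and 135, 132 and 71.7 in the DKO retinae. The groups did not overlap, and replicate 3 of each genotype lay nearest to the other genotype, as in the dividing cell markers. The log2FC was -2.34 (SE 0.43, edgeR adjusted p = 0.0117). Trp73 was the only member, 1 of 10, that also met the 3 criteria of the study, which add to the call a log2FC beyond 1 in either direction and a base mean of 10 or more. Of all genes tested 6.35% met them, 4.38% in the lower direction. The call was lost on leaving out TKO replicate 2 (edgeR adjusted p = 0.0535), DKO replicate 1 (0.0519) or DKO replicate 2 (0.0547). Exons of the antisense gene Trp73os cover 280 bp (5.06%) of its exons, and the strand setting of the counting is not stated.

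The 4 members called lower were also the 4 whose TKO values all lay below their DKO values, an ordering seen in 20.6% of all genes tested. Over the 10 members the median log2FC was -0.50, and over all genes tested it was -0.011. The members were chosen with earlier results of these data known, so these medians are a description only.

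**Figure D1:**
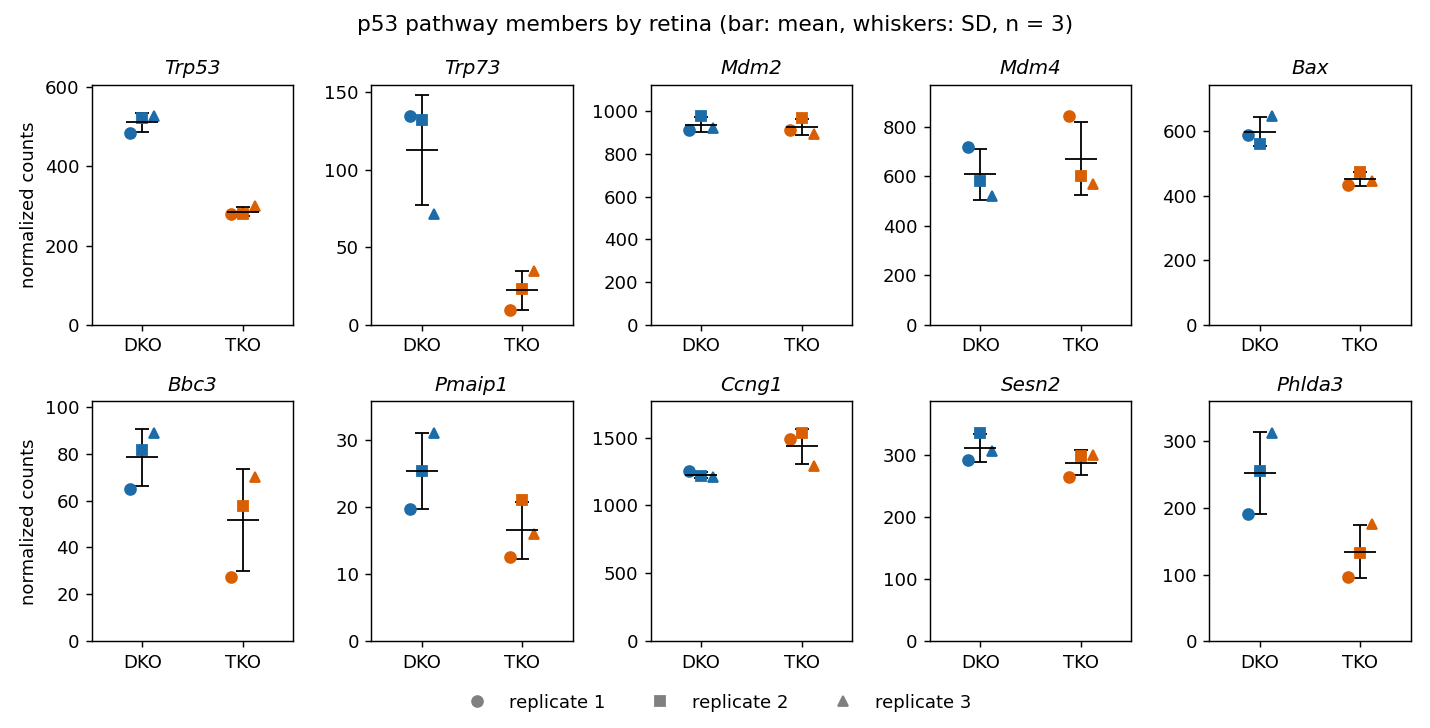
Normalized counts (vertical axis, from 0, own scale per gene) of the 10 members in DKO (blue) and TKO (orange) retinae, with 1 point per retina, a bar at the mean and whiskers of 1 SD (n = 3). Trp53, Trp73, Bax and Phlda3 show TKO points below all DKO points, and Mdm2 shows the same range in both genotypes.

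Neither inhibitor passed the test. Mdm2, the ubiquitin ligase that is also a p53 target, gave 913, 968 and 896 normalized counts in the TKO retinae and 915, 978 and 923 in the DKO retinae. The TKO and DKO values covered nearly the same range. The log2FC was -0.020, with a 95% interval from -0.19 to 0.15 (edgeR adjusted p = 0.878). Mdm4, which binds p53 and blocks its activity, gave 843, 603 and 569 normalized counts in the TKO retinae and 720.0, 581 and 521 in the DKO retinae. Replicate 1 was the highest in each genotype and the groups overlapped. The log2FC of Mdm4 was 0.15 with a 95% interval from -0.25 to 0.54 (edgeR adjusted p = 0.596), and its sign turned to -0.020 with total counts only and to -0.051 without TKO replicate 1.

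The ratio of Trp53 counts to Mdm2 counts within each library does not depend on library scaling, and it was chosen after these values had been seen. It was 0.305, 0.288 and 0.334 in the TKO retinae and 0.529, 0.534 and 0.571 in the DKO retinae. The groups did not overlap. Since Trp53 did not overlap between groups and Mdm2 had nearly the same range in both, this ratio had to separate them, so it is given with no test.

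The 3 apoptosis targets among the members had fitted changes below 0, as had 51.2% of all genes. Of the 3, 1 was called lower, where 9.2% of all genes were. Bax, which forms pores in the outer mitochondrial membrane and lies on chromosome 7 from 45461697 to 45466898, gave 433, 475 and 447 normalized counts in the TKO retinae and 589, 560.3 and 647 in the DKO retinae. No TKO value reached the lowest DKO value, and the mean was 24.6% lower in TKO retinae. The log2FC was -0.41 (SE 0.093, edgeR adjusted p = 0.0226). Leaving out TKO replicate 1 or 2 raised the edgeR adjusted p to 0.0736 or 0.0685, and leaving out DKO replicate 1 or 2 raised it to 0.0637 or 0.0577. A same-strand gene model, Gm45808, shares 192 bp (12.2%) of the Bax exons.

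Bbc3, which encodes the BH3-only protein PUMA, gave 27.5, 57.9 and 69.95 normalized counts in the TKO retinae and 64.9, 81.4 and 88.9 in the DKO retinae. TKO replicate 3 exceeded DKO replicate 1, so the groups overlapped. The log2FC was -0.60 with a 95% interval from -1.34 to 0.14 (edgeR adjusted p = 0.233). Pmaip1, which encodes the BH3-only protein NOXA, had the lowest mean count of the members, with 11, 20 and 13 counts in TKO libraries and 21, 29 and 36 in DKO libraries. The log2FC was -0.61 with a 95% interval from -1.37 to 0.14 (edgeR adjusted p = 0.232). The log2FC of Trp53 lies inside both intervals, so a change of that size is not excluded for either gene.

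The remaining targets went in different directions. Phlda3, an inhibitor of AKT on chromosome 1 from 135766119 to 135769136, gave 96.3, 132 and 175 normalized counts in the TKO retinae and 190.1, 256 and 313 in the DKO retinae. The groups did not overlap, but TKO replicate 3 and DKO replicate 1 lay close together. The log2FC was -0.91 (SE 0.25, edgeR adjusted p = 0.0414). This was the least stable of the 4 calls, since it held only on leaving out TKO replicate 3. The edgeR adjusted p rose to 0.112 and 0.128 on leaving out TKO replicates 1 and 2, and to 0.0541, 0.121 and 0.0846 on leaving out DKO replicates 1, 2 and 3 in turn.

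Ccng1, which encodes cyclin G1, a p53 target that acts back on MDM2, gave 1486, 1536 and 1291 normalized counts in the TKO retinae and 1252, 1218 and 1207 in the DKO retinae. Each TKO value was above each DKO value, as in 18% of all genes tested. The log2FC of 0.23 had a 95% interval from 0.036 to 0.43, and the gene did not pass after adjustment over all genes (edgeR adjusted p = 0.0997). It passed on leaving out TKO replicate 3 (0.0296), and with total counts only the log2FC was 0.070. Ccng1 was the only member higher in TKO retinae with an unadjusted p under 0.05, by edgeR and by DESeq2, against 15.3% of all genes by edgeR. Sesn2, which encodes sestrin 2, a stress-induced inhibitor of mTORC1, gave 264, 298 and 299 normalized counts in the TKO retinae and 292, 335 and 306 in the DKO retinae. These ranges overlapped, and the log2FC was -0.12 with a 95% interval from -0.37 to 0.14 (edgeR adjusted p = 0.507).

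**Figure D2:**
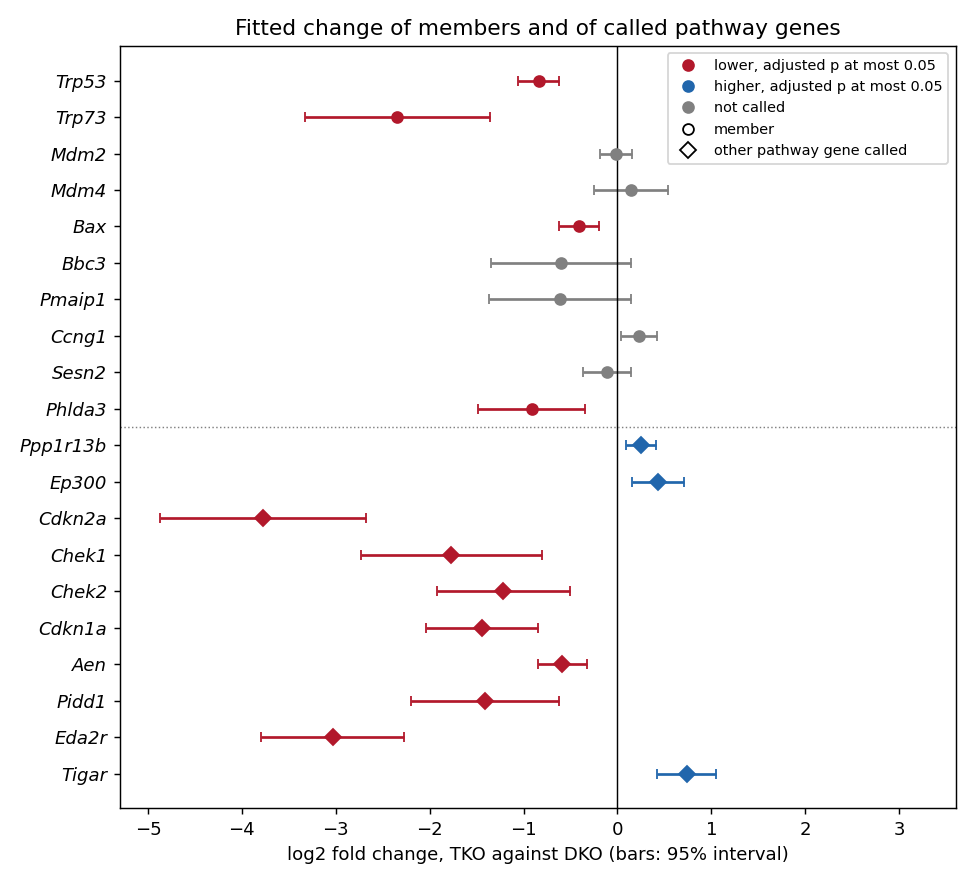
Fitted log2 fold change of TKO against DKO (horizontal axis, bars are 95% intervals) for the 10 members (circles) and the 10 other pathway genes called (diamonds), with lower genes in red, higher genes in blue and genes not called in grey. Trp73, Cdkn2a and Eda2r lie farthest below 0, and Cdkn2a rests on 1 or 2 counts per TKO library.

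Levels of different genes were compared as normalized counts per kb of annotated exon. In DKO retinae Bax was at 379.9 ± 27.9 and Ccng1 at 349 ± 6.64 per kb (SD, n = 3 each). These ranges overlapped, but Bax was above Ccng1 within each DKO retina. Mdm2 followed at 185 ± 6.75, Phlda3 at 162 ± 39.3 and Trp53 at 126 ± 5.86 per kb. The range of Phlda3 overlapped with both of its neighbours, though Phlda3 was above Trp53 within each DKO retina. Sesn2 at 89.5 ± 6.40 was below Trp53 in each retina. Mdm4 at 41.1 ± 6.88 and Bbc3 at 36.9 ± 5.78 per kb overlapped, and Trp73 at 20.4 ± 6.44 and Pmaip1 at 9.30 ± 2.07 were the lowest. In TKO retinae Ccng1 was the highest at 409 ± 36.8 per kb, above Bax at 287 ± 13.3 in each retina. Trp53 at 70.6 ± 2.95 was below Sesn2 at 82.6 ± 5.80, and Trp73 at 4.02 ± 2.28 overlapped with Pmaip1 at 6.05 ± 1.55. The order is a description of these libraries, and it was not tested.

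**Figure D3:**
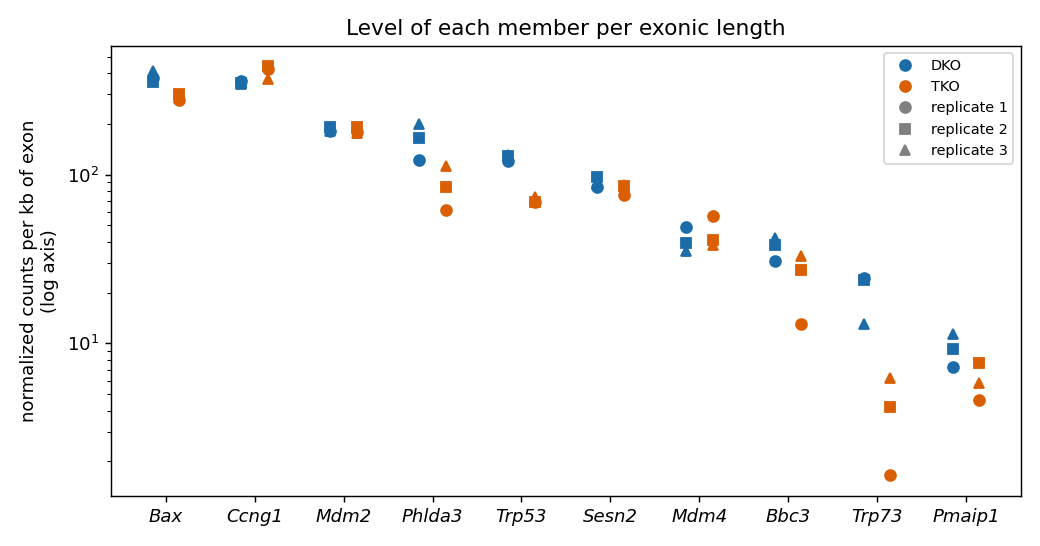
Normalized counts per kb of annotated exon (vertical log axis) of the 10 members in DKO (blue) and TKO (orange) retinae, 1 point per retina, ordered by the DKO mean. Bax and Ccng1 are the highest in both genotypes, and Trp53 and Trp73 move down in the order in TKO retinae.

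To ask whether other genes of the pathway differed, 51 genes in 5 lists by role were read from the same fit. Like the members, these lists were chosen with earlier results of these data known. Of the 51 genes, 7 were lower and 3 higher in TKO retinae and 41 were not called. This is 19.6% called, against 16.6% of all genes tested, a share near the background. By direction, 13.7% were called lower, against 9.2% of all genes, and 7.35% of all genes were called higher. With the 3 criteria of the study, 6 of the 51 were lower and 0 higher, where 4.38% of all genes were lower. TKO values all lay below DKO values in 14 of the 51 genes and all above in 7, against 20.6% and 18% of all genes. The median log2FC over the 51 genes was 0.0052, against -0.011 over all genes. At an unadjusted p under 0.05, 13 of the 51 genes were lower and 7 higher by edgeR, 39.2% in all, where 17.8% of all genes tested were lower and 15.3% higher, 33.1% in all. By DESeq2, 11 were lower and 6 higher, 33.3% in all, against 29.6% of all genes.

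The lists by role hold 8 to 12 genes each, so a share rests on few calls, and no list was tested against all genes. Of 12 upstream regulators, 3 (25%) were lower and 0 higher, where 9.2% of all genes were lower and 7.35% higher. Their median log2FC was 0.0058. Cdkn2a, the locus of ARF, was read 1, 1 and 2 times in the TKO libraries, against 26, 28 and 21 counts with Hells intact. Scaled for depth and pooled, the DKO level was 14.7 times that of the TKO libraries, with an exact 95% interval from 5.51 to 55.4 that covers counting error only (edgeR adjusted p = 0.00627). The counts do not separate ARF from p16, which is read from the same locus. Chek1, a checkpoint kinase that acts on replication stress, gave 35.55, 56.8 and 123 normalized counts in the TKO retinae and 305, 268 and 157 in the DKO retinae. The log2FC was -1.77 (SE 0.421, edgeR adjusted p = 0.0256), and with robust dispersion the call was lost (0.0504). Chek2, the kinase downstream of ATM, ran from 21.8 to 40.5 in TKO and from 53.5 to 93.2 in DKO retinae, a log2FC of -1.21 (edgeR adjusted p = 0.0324). Replicate 3 of each genotype was again nearest to the other genotype for both kinases.

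Of 9 arrest targets, 1 (11.1%) was lower, 0 higher and 8 not called, with a median of -0.18. This share is near the 9.2% of all genes called lower. The gene called was Cdkn1a, which encodes the CDK inhibitor p21, the best known arrest target of p53. It gave 157, 262 and 358 normalized counts in the TKO retinae and 786, 749 and 579 in the DKO retinae. The order of the 6 retinae was that of the dividing cell markers, an order not counted over all genes, and the groups were apart. The log2FC was -1.45 (SE 0.26, edgeR adjusted p = 0.0112). The call was lost by a narrow margin on leaving out TKO replicate 2 (0.0531), DKO replicate 1 (0.0504) or DKO replicate 2 (0.051), all edgeR adjusted p-values.

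**Figure D4:**
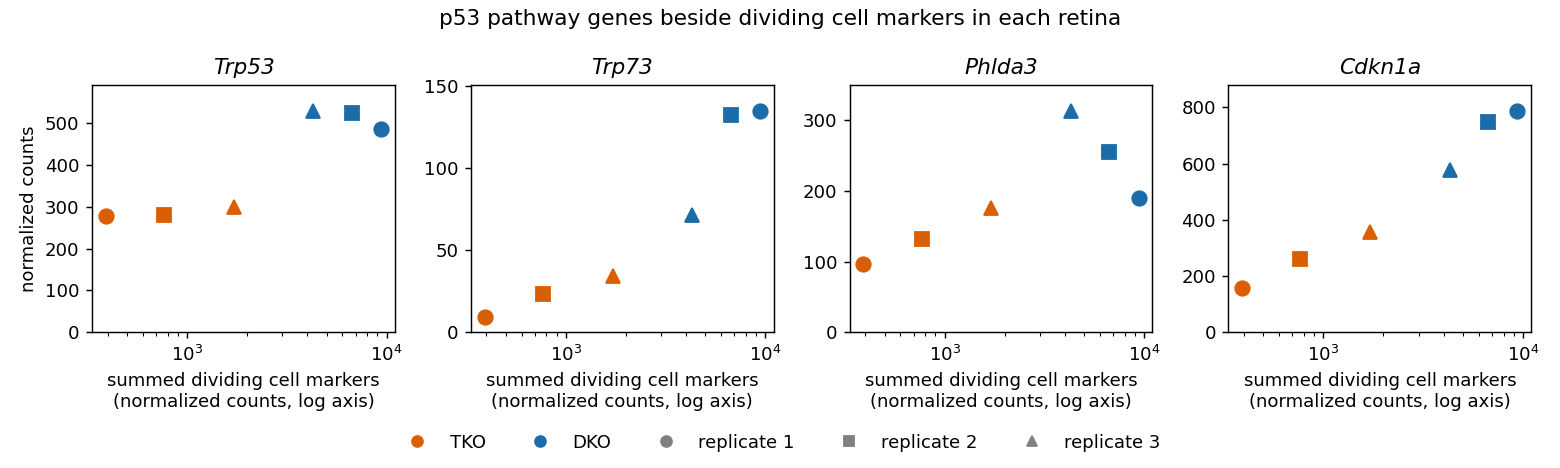
Normalized counts (vertical axis, from 0) of Trp53, Trp73, Phlda3 and Cdkn1a against the summed level of 6 dividing cell markers (horizontal log axis) in the 3 TKO (orange) and 3 DKO (blue) retinae, with symbols for the replicate. Trp73 and Cdkn1a rise with the markers over all 6 retinae, and Trp53 is nearly flat within TKO retinae. In DKO retinae Trp53 and Phlda3 are highest in replicate 3, where the markers are lowest.

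These plots show different orders within a genotype. Trp73 and Cdkn1a had the order of the dividing cell markers in all 6 retinae. Chek1, Chek2 and Pidd1, a death target described below, had that order too and are not plotted. Phlda3 had that order among TKO retinae and the opposite order among DKO retinae. So did Trp53, though its values in TKO replicates 1 and 2 were nearly equal. The genes with the full order were also called lower with groups apart, so only the order within each genotype adds to those calls. The share of all genes with this order was not counted. With 3 retinae per genotype these orders are a description, and the part of dividing cells in these levels was not tested.

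Of 12 death targets, 3 (25%) were lower, 0 higher and 9 not called, where 9.2% of all genes were lower and 7.35% higher. Fitted changes were below 0 for 11 of the 12 (51.2% of all genes were), with a median of -0.60. Eda2r, a receptor of the TNF receptor family, gave 8.03, 12.6 and 19.6 normalized counts in the TKO retinae and 122, 125 and 82.9 in the DKO retinae. The log2FC was -3.03 (SE 0.333, edgeR adjusted p = 0.0048), from 7 to 16 counts in the TKO libraries. Pidd1, a death domain protein, gave 65.4, 85.3 and 162 normalized counts in the TKO retinae and 373, 255 and 204 in the DKO retinae, a log2FC of -1.42 (edgeR adjusted p = 0.0277). Aen, an apoptosis-enhancing nuclease, ran from 313 to 364 in TKO and from 451 to 547 in DKO retinae, a log2FC of -0.59 (edgeR adjusted p = 0.0134). For each of the 3 genes all TKO values lay below the DKO values, as in 20.6% of all genes tested.

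Of 10 repair and metabolism targets, 1 (10%) was higher, 0 lower and 9 not called, with a median of 0.066. This share is near the 7.35% of all genes called higher. Tigar, which encodes a phosphatase that restrains glycolysis, gave 822, 729 and 629.6 normalized counts in the TKO retinae and 392, 405 and 511 in the DKO retinae. Each TKO value was above each DKO value, and the log2FC was 0.74 (SE 0.138, edgeR adjusted p = 0.0122). Leaving out TKO replicate 2, DKO replicate 1 or DKO replicate 2 gave edgeR adjusted p-values of 0.0541, 0.0536 and 0.0586. Within TKO retinae Tigar had the order of the rod markers, and in DKO retinae both were highest in replicate 3. The part of rods in this level was not tested.

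Of 8 family members and cofactors, 2 (25%) were higher, 0 lower and 6 not called, with a median of 0.19. Of all genes, 7.35% were called higher and 9.2% lower. Ep300, an acetyltransferase coactivator of p53 and of many other factors, averaged 2078 ± 305 normalized counts in TKO against 1537 ± 149.8 in DKO retinae (SD, n = 3 each), with a log2FC of 0.44 (edgeR adjusted p = 0.0439). Ppp1r13b, which encodes ASPP1, averaged 1592 ± 57.8 against 1339.5 ± 33.2 (SD, n = 3 each), with a log2FC of 0.25 (edgeR adjusted p = 0.0462). With total counts only, both stayed above 0 and neither was called (edgeR adjusted p = 0.0972 and 0.43). Ppp1r13b was also not called with upper quartile scaling (0.0755) or with no filter on low counts (0.0569), again edgeR adjusted p-values.

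When 1 of the 6 retinae was left out in turn, the number of pathway genes called ranged from 2 to 13. Leaving out TKO replicates 1, 2 and 3 gave 5, 3 and 13, and leaving out DKO replicates 1, 2 and 3 gave 3, 2 and 11. The calls over all genes moved as well, among 16666 to 16773 genes tested. They were 1307, 712 and 3590 without TKO replicates 1, 2 and 3, and 811, 647 and 3198 without DKO replicates 1, 2 and 3. Cdkn2a and Eda2r were called in all 6 of these fits, with adjusted p-values from edgeR of at most 0.0388 and 0.0362. Aen was called in 5 of them and had 0.057 without DKO replicate 2. Chek1, Chek2 and Pidd1 were not called without TKO replicate 1 or 2 or DKO replicate 1 or 2, with adjusted p-values from edgeR up to 0.102, 0.111 and 0.108. Ep300 was not called in the same 4 fits (up to 0.154), and Ppp1r13b was called in 0 of the 6 (0.068 to 0.144).

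**Figure D5:**
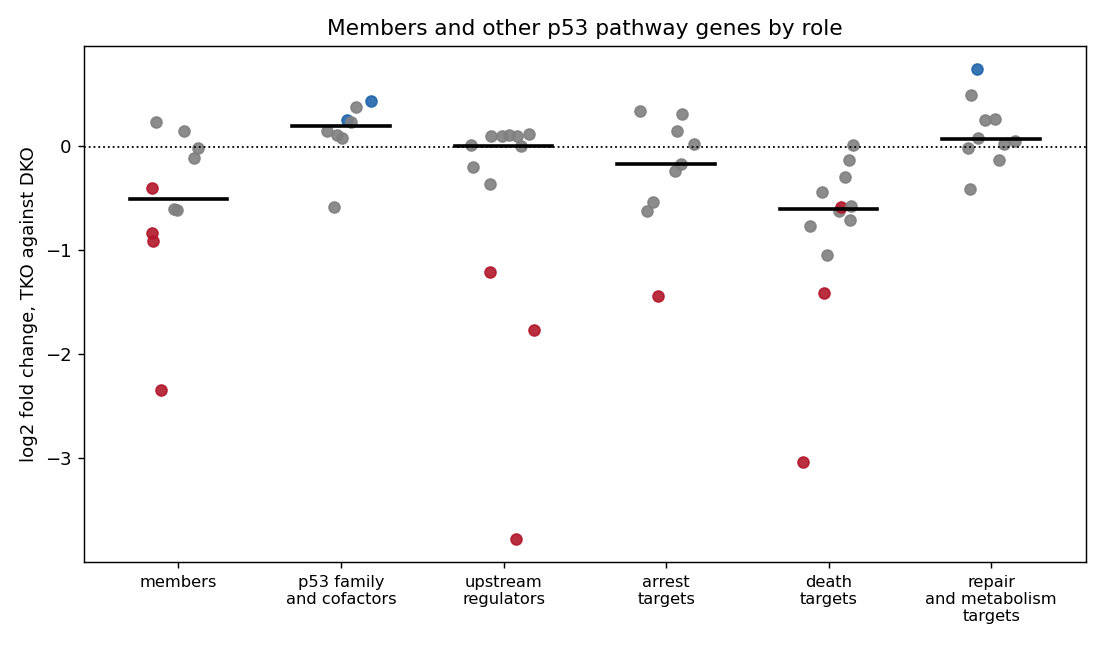
Fitted log2 fold change of TKO against DKO (vertical axis) of the 10 members and the 51 other pathway genes by role, 1 point per gene, with lower calls in red, higher calls in blue, genes not called in grey, a bar at the median of each list and a dotted line at the median of all genes (-0.011). The members and the death targets have medians of -0.50 and -0.60, and the other lists have medians from -0.18 to 0.19. All lists were chosen with earlier results of these data known.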

How the data were processed

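RNA-seq libraries of 3 TKO and 3 DKO retinae at postnatal day 21 were used. The authors deposited raw counts of read pairs per gene, without normalization. The paper names alignment to GRCm38 with STAR and counting with HTSeq, whereas the submitters' processing notes name TopHat2 and featureCounts, and the strand setting is not given in the sources used here.

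Genes with a sum under 10 were removed, which left 16904. TKO was compared with DKO by edgeR 4.0.16 in R 4.3.3 (TMM, quasi-likelihood F test, Benjamini-Hochberg adjustment over all genes tested), and a gene was called at an adjusted p of at most 0.05. For normalized counts, each library was divided by its TMM effective size over the mean of these sizes. Standard errors were derived from the size of the log2 fold change and its F statistic, and 95% intervals from them. In simulated counts of 16775 genes, 200 of 200 genes changed by a log2 fold of 2 were called, and 9 of 16575 unchanged genes. The changed genes were drawn from those of higher mean count, and all genes had the same dispersion. Smaller changes, such as those of Trp53, Bax and Phlda3, were not simulated. Depth was 10343907 to 14203098 counts per library, and replicate pairs were farther apart than counting error allows (chi-square over its degrees of freedom, 8.61 to 25.3). Counting intervals cover counting error only.

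Coordinates and exonic lengths come from GENCODE M21 on GRCm38, a release other than the one the paper names, and promoter windows from RefSeq on GRCm38.p6. Cop1 and Tigar were matched through RefSeq synonyms. The members and lists were chosen with earlier results of these data known. The rule for named genes took the members, Hells and the called genes of each pathway list (for a list without a call, the 2 highest in level, which no list needed). No search for genes of like pattern was made, because the libraries fall into 2 genotypes. Alternatives were DESeq2 1.42.0 (the paper's tool), 3 other scalings, 2 other filters, robust dispersion, the replicate number as a block and each retina left out in turn.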

Additional observations from a re-analysis of the deposited data

How the results depend on the processing

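With DESeq2, the other scalings and filters and robust dispersion, the same 4 members were called, all lower, and no called member changed sign under any alternative. Scaling by total counts only shifted the median change of all genes (log2) from -0.011 to -0.17. In that fit 778 genes were higher and 2610 lower (against 1243 and 1556), 2 members met the 3 criteria in place of 1, 1 pathway gene was higher in place of 3, and Mdm4 turned to -0.020.

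With 1 retina left out, the members called ran from 1 to 5 (higher 0 to 1, lower 1 to 4, with the 3 criteria 0 to 2) and the pathway genes from 2 to 13 (higher 0 to 4, lower 2 to 9). All genes called ran from 647 to 3590 (higher 214 to 1617, lower 404 to 1973). Mdm2 ran from -0.053 to 0.011 and Mdm4 from -0.051 to 0.28 in log2 fold change.

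With the replicate number as a block, 1 member was called (Trp53, lower), 0 with the 3 criteria, and 0 pathway genes (0 higher, 0 lower). Of the 51 pathway genes 17 (33.3%) had an unadjusted p under 0.05 in this fit, as had 29.6% of all genes. Over all genes the block left 106 calls, 24 higher and 82 lower. Across genes, the deviations of TKO and DKO retinae with the same number had correlations of 0.046, -0.044 and -0.14. With 3 retinae per genotype, these values cannot settle whether such retinae share more than a number.

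Among the genes called, TKO libraries held 1 to 2 counts of Cdkn2a, 7 to 16 of Eda2r and 8 to 28 of Trp73, so these folds rest on few reads.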
